A study of Danio rerio with 4 samples.

Results

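The complement component genes described here are 10 genes of the complement system, taken by their symbols from a table of 16405 genes: *c3a.1*, *c3a.2*, *c3a.3*, *c3b.1*, *c3b.2*, *c4b*, *c5*, *c8a*, *c9* and *cfb*. All 10 were present. They were followed in 4 libraries of liver RNA from zebrafish larvae at 6 dpf (days post-fertilization), all of them fasted. The WT group held 2 libraries (replicates 1 and 4), and the *pex5*-/- group, labelled pex5 KO, held the other 2 (replicates 1 and 2). The mutants were homozygous for a small CRISPR-Cas9 deletion in *pex5*, which encodes the import receptor of peroxisomal matrix proteins. The allele goes back to a single founder, and the heterozygous mothers still supply *pex5* product to the egg. No fed livers were analysed here, so fasting is common to both groups and was not itself compared. How many livers went into a library, and whether the replicates came from separate clutches, are not given in the sources used here, so the spread between libraries may be partly technical.

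Complement is a cascade of plasma proteins, most of which are made and secreted by hepatocytes. The classical pathway (through C1 and C4), the lectin pathway (through MASP proteases and C4) and the alternative pathway (through factor B) all lead to cleavage of C3, whose fragments coat microbes, and then of C5, whose larger fragment starts assembly of the membrane attack complex from C6, C7, C8 and many copies of C9. Zebrafish carry several C3 genes in place of the single mammalian one. In mammals, several complement genes, among them those for C3 and factor B, are induced in the liver during the acute phase response, the change in plasma protein synthesis that follows infection or injury.

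The libraries held between 1217737 and 1425834 deduplicated reads. Values are in TMM, the reads of a gene scaled per library by the trimmed mean of M-values, and a read was worth between 0.691 and 0.785 TMM. Because the CEL-Seq2 protocol tags each transcript near its 3′ end, the number of tags does not grow with transcript length, and levels of different genes are compared below on this scale without a length correction. Differences are the mean log2(TMM + 1) of *pex5*-/- minus that of WT, with a standard error from limma fitted on the 3349 genes averaging 10 TMM or more. Benjamini-Hochberg adjustment left 0 of these genes (0%) with an adjusted p under 0.05, against 121 at an unadjusted p under 0.05. The same test with voom weights on the reads also gave 0, and 94 unadjusted. No exact permutation test of 2 libraries against 2 can reach 0.05, the smallest possible p being 0.33. Hepatocyte markers were abundant in every library, *fabp10a* lying between 3948 and 6237 TMM. The 12 hepatocyte markers summed to 156422 and 144984 TMM in WT and to 210174 and 208278 TMM in *pex5*-/-. By their means 8 were higher and 4 lower, *fabp10a* among the lower. Without overlap, 5 lay above WT (16.9% of all tested genes) and 1 below (13.5%). A large part of the sum came from *apoa2*, at 67534 and 71063 against 123993 and 118820 TMM. Markers of other tissues were unevenly present. The summed heart muscle markers were at 194 and 293 TMM in WT and at 30.8 and 40.1 TMM in *pex5*-/- (7 of 7 lower by their means). The red blood cell markers were at 886 and 421 against 1672 and 1289.9 TMM (7 of 7 higher by their means). Of the 6 averaging 10 TMM or more, 3 lay above WT without overlap (16.9% of all tested genes). The intestinal markers summed to 709 and 989 against 2473 and 1940 TMM (6 of 6 higher by their means). Most of that sum came from *apoa4b.1*, at 704 and 961 against 2182 and 1937 TMM. The higher means of the other intestinal markers rested on *pex5*-/- replicate 1. There *vil1* was at 207 TMM, against 1.38 TMM in *pex5*-/- replicate 2. The exocrine pancreas markers were at 1543 and 3951 against 2697 and 1761 TMM. In such bulk samples, fewer cells of a type and less RNA per cell cannot be told apart.

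All 8 members averaging 10 TMM or more had a lower mean in *pex5*-/- livers, where 49.5% of the tested genes did, and their median log2 difference was -0.59 against 0.00 for all tested genes. None was called, and in only 2 of the 8, *c4b* and *c3a.2*, did both *pex5*-/- libraries lie below both WT libraries. This was so for 13.5% of the tested genes. WT replicate 1 was the highest of the 4 libraries for 6 of the 8, against 23.2% of the tested genes. Without that library, 5 of the 8 members were lower in *pex5*-/-, and the median difference was -0.08. The lower means of *c3a.1*, *cfb* and *c9* were then gone and that of *c3a.3* nearly so. *c4b*, *c3a.2*, *c5* (-0.24) and *c8a* (-0.077) were still lower. These values have WT replicate 4 as the only WT library. Without WT replicate 4 instead, 7 of the 8 were lower and the median difference was -0.91, with WT replicate 1 as the only WT library. Which WT library is the less typical was not tested.

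**Figure D1:**
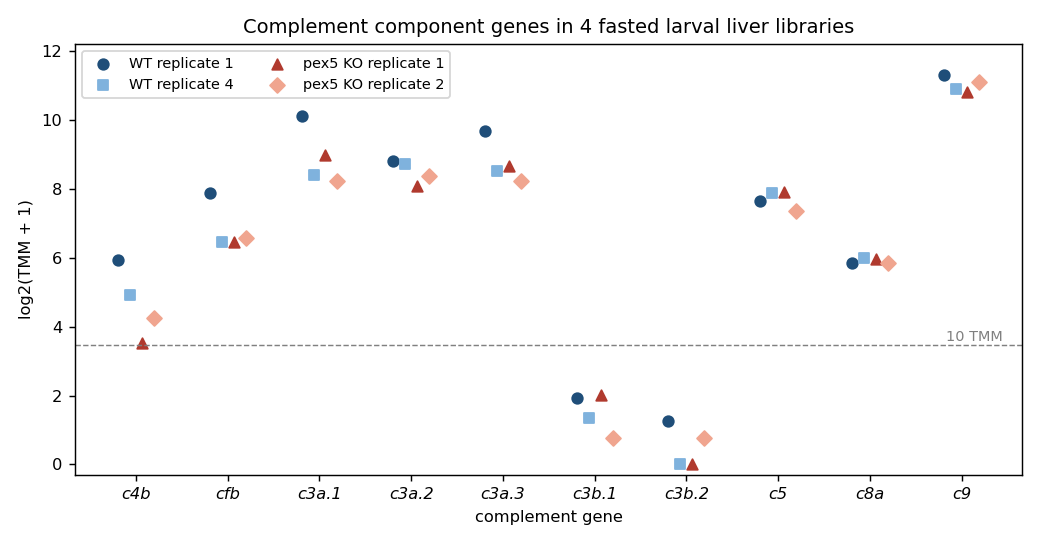
The log2(TMM + 1) of each member (vertical axis) is shown by gene (horizontal axis), a point for each library, with WT in blue and pex5 KO in red. WT replicate 1 stands above the other 3 libraries for c4b, cfb, c3a.1 and c3a.3, while the points of c5, c8a and c9 lie close together and c3b.1 and c3b.2 lie below the dashed line at 10 TMM.

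C4 is cleaved by the classical and lectin pathway proteases and joins the convertase that cuts C3. Its gene *c4b* (ENSDARG00000038424, chromosome 16) was at 60.3 and 29.1 TMM in the WT libraries and at 10.5 and 17.97 TMM in the *pex5*-/- libraries. The groups did not overlap, although the values rested on few reads, 85 and 37 against 14 and 26. The exact Poisson 95% interval of WT replicate 4 ran from 20.46 to 40.0 TMM and overlapped that of *pex5*-/- replicate 2, 11.7 to 26.3 TMM. The means were 44.7 ± 22.1 TMM in WT and 14.2 ± 5.27 TMM in *pex5*-/- (SD, n = 2 libraries each). Their log2 difference of -1.54 (standard error 0.48, adjusted p = 1.00 from limma) was the largest of the 8 tested members, and it was between -2.05 and -1.02 with any library left out. *c4b* was the single member with an unadjusted limma p under 0.05 in this direction, as were 1.07% of the tested genes. The summed heart muscle markers differed between the genotypes in the same direction, and their part in the result was not tested. The paralog *c4* (chromosome 15) had at most 3 reads in any library. A RefSeq gene table of another zebrafish assembly, GRCz12tu, places *pex5* on chromosome 16 as well. It lists *pex5* at place 207 and *c4b* at place 290 of the 1154 coding genes there. Of the 171 tested genes on that chromosome, 24 (14.0%) lay below WT without overlap and 34 (19.9%) above it. The stretch near *pex5* was not examined separately.

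Factor B is the serine protease of the alternative pathway C3 convertase. Its gene *cfb* (ENSDARG00000055278, chromosome 21) was at 236 TMM in WT replicate 1 and at 86.4 TMM in WT replicate 4, with 86.4 and 93.3 TMM in the *pex5*-/- libraries. WT replicate 1 thus stood alone, and the counting interval of the other WT library, 71.0 to 104 TMM, held both mutant values. The log2 difference of -0.67 (standard error 0.51, adjusted p = 1.00 from limma) turned to 0.056 without WT replicate 1 and was -1.39 without WT replicate 4.

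C3 is the point at which the pathways meet, and the 5 C3 members fell into an abundant and a nearly silent set. The abundant genes *c3a.1* (ENSDARG00000012694), *c3a.2* (ENSDARG00000087359) and *c3a.3* (ENSDARG00000052207) are on chromosome 1, where the GRCz12tu table lists *c3a.2* and *c3a.3* as neighbours and *c3a.1* beside other C3 copies. *c3a.1* was at 1105 and 335 TMM in WT and at 501 and 300.0 TMM in *pex5*-/-. *c3a.3* was at 814 and 365 TMM in WT and at 399.8 and 298 TMM in *pex5*-/-. Both were highest in WT replicate 1 and overlapped between the genotypes. The difference between the WT libraries was larger than that between the genotypes, replicate 4 lying 1.72 (*c3a.1*) and 1.15 (*c3a.3*) below replicate 1 on the log2 scale, where the genotypes differed by -0.65 (standard error 0.62) and -0.66 (standard error 0.44). Without WT replicate 1, the 2 differences were 0.21 and -0.08, and without WT replicate 4 they were -1.51 and -1.24.

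*c3a.2* behaved otherwise, with 444 and 417 TMM in WT and 268 and 331 TMM in *pex5*-/-. The means were 431 ± 19.3 and 299 ± 44.9 TMM (SD, n = 2 libraries each), so that the groups did not overlap and the 2 WT libraries were close to each other. *pex5*-/- was lower by a log2 difference of -0.53 (standard error 0.24, adjusted p = 1.00 from limma), and it stayed between -0.68 and -0.38 when any library was left out. The C3 genes are similar in sequence, and reads that fit several copies could be lost or shared among them, so the values of single copies are uncertain. Summed over all C3 genes of the table, the log2 difference was -0.59 (adjusted p = 1.00 from limma). It was -0.048 without WT replicate 1 and -1.13 without WT replicate 4, values chosen after the data were seen.

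The other pair, *c3b.1* (ENSDARG00000093068) and *c3b.2* (ENSDARG00000001818), are neighbours on chromosome 22. The WT libraries held 4 and 2 reads of *c3b.1* and the *pex5*-/- libraries 4 and 1. For *c3b.2* the counts were 2 and 0 in WT against 0 and 1. All but the 4 reads of *c3b.1* in both replicates 1 lay at or under a floor of 3 reads, which is 2.07 to 2.36 TMM, and no difference was detectable for either gene at this depth, and neither entered the test.

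Shares within a library do not depend on how the libraries were scaled. Of all C3 reads, *c3a.1* made up 43.8% in replicate 1 of WT and 38.2% in replicate 1 of *pex5*-/-, but 28.1% and 29.5% in the remaining WT and *pex5*-/- libraries. *c3a.2* showed the opposite order, with 17.6% and 20.4% in the first 2 of these libraries and 35.0% and 32.6% in the others. The 95% Wilson intervals of the first 2 libraries overlapped neither of the others for both genes, so the make-up of C3 differed between libraries of the same genotype beyond counting error. *c3a.3* kept between 29.3% and 32.2% in every library. Between genotypes the share of *c3a.1* was 35.9 ± 11.1% in WT and 33.9 ± 6.14% in *pex5*-/- (SD, n = 2 libraries each, exact two-sided permutation p = 1.00). A further paralog outside the 10 members, *c3a.6*, was at 155 and 73.0 TMM in WT and at 137 and 85.0 TMM in *pex5*-/-. It made up 6.16% and 6.12% of the C3 reads in WT and 10.4% and 8.37% in *pex5*-/-, higher in both *pex5*-/- libraries (exact two-sided permutation p = 0.33, the smallest possible). The intervals of WT replicate 4 (5.02% to 7.44%) and *pex5*-/- replicate 2 (7.06% to 9.90%) overlapped. The intervals cover counting error only.

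**Figure D2:**
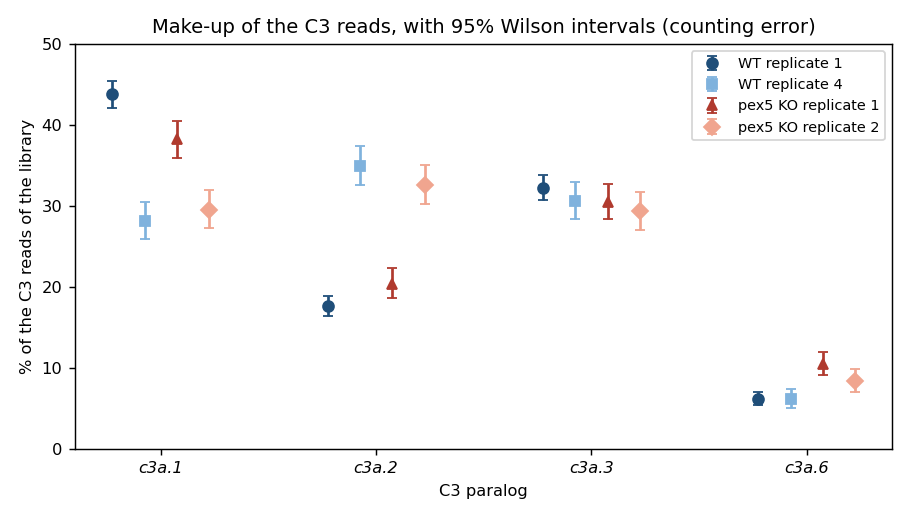
The percentage of a library's C3 reads (vertical axis) is shown for 4 C3 paralogs (horizontal axis), with 95% Wilson intervals for counting error. c3a.1 and c3a.2 separate WT replicate 1 and pex5 KO replicate 1 (43.8% and 38.2% for c3a.1) from WT replicate 4 and pex5 KO replicate 2 (28.1% and 29.5%), c3a.3 is level, and c3a.6 is higher in both pex5 KO libraries.

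Downstream of C3, the terminal components differed little between the genotypes. *c5* (ENSDARG00000021004, chromosome 5), whose product releases the chemoattractant C5a, was at 197 and 233 TMM in WT and at 237 and 164 TMM in *pex5*-/-. The lowest and the highest of the 4 values were both *pex5*-/- libraries, and the log2 difference was -0.12 (standard error 0.30). *c8a* (ENSDARG00000039516, chromosome 2), which encodes a membrane-inserting chain of C8, was the most even member, at 56.8 and 62.0 TMM in WT and at 60.9 and 56.7 TMM in *pex5*-/-. Its reads numbered 80, 79, 81 and 82 and its log2 difference was -0.01 (standard error 0.26). With standard errors of this size, 4 libraries do not show that the levels of either gene were equal.

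*c9* (ENSDARG00000016319, chromosome 5), which encodes the pore-forming subunit of the membrane attack complex, was the most abundant member, with 2540 and 1888 TMM in WT and 1793 and 2206 TMM in *pex5*-/-. It was the highest of the 10 in every library and ranked 49 of 16405 genes by mean level. The groups overlapped, with a log2 difference of -0.14 (standard error 0.24, adjusted p = 1.00 from limma). *c9* made up 46.5% of the members' reads in WT replicate 1, where the C3 genes and *cfb* were high, and 55.2% in the other WT library, against 53.4% and 63.6% in the *pex5*-/- libraries. Below it, *c3a.1*, *c3a.2* and *c3a.3* changed places between libraries, with *c3a.1* the second highest in both replicates 1 and *c3a.2* in the other 2. *c5*, *cfb*, *c8a* and *c4b* followed in this order in all libraries but WT replicate 1, where *cfb* exceeded *c5* and *c4b* exceeded *c8a*. In that library the counting intervals of *c4b* (48.2 to 74.6 TMM) and *c8a* (45.0 to 70.7 TMM) overlapped.

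**Figure D3:**
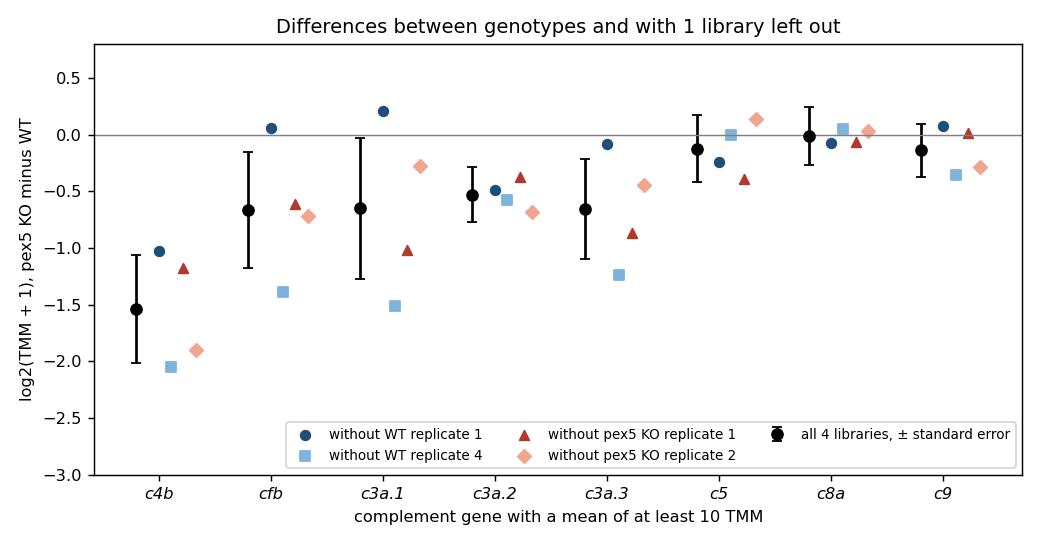
Log2 differences between pex5 KO and WT (vertical axis) are shown for the 8 members averaging 10 TMM or more (horizontal axis), in black with the standard error from limma and in colour with 1 library left out. Without WT replicate 1 the differences of cfb (0.056) and c3a.1 (0.21) rise above 0, while every point of c4b stays at or below -1.02.

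Together the 10 members took 0.573% and 0.357% of all reads in WT (replicates 1 and 4) and 0.318% and 0.352% in *pex5*-/- (replicates 1 and 2). The Wilson intervals of WT replicate 4 (0.347% to 0.368%) and *pex5*-/- replicate 2 (0.342% to 0.362%) overlapped, and WT replicate 1 was apart. The means were 0.465 ± 0.152% and 0.335 ± 0.0238% (SD, n = 2 libraries each, exact two-sided permutation p = 0.33, the smallest possible). The difference of -0.13 percentage points was -0.02 without WT replicate 1 and -0.24 without WT replicate 4. Of the reads outside the mitochondrial genome, the members took 0.916% and 0.569% in WT and 0.505% and 0.535% in *pex5*-/-. There the intervals of WT replicate 4 (0.552% to 0.586%) and *pex5*-/- replicate 2 (0.521% to 0.550%) did not overlap. The intervals cover counting error only.

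Other genes of the complement system were examined through 58 further symbols, of which 35 were listed, 31 had reads and 15 averaged 10 TMM or more. The symbols did not include *bfb*, which follows *cfb* in the GRCz12tu table. Its log2 difference was 0.024 (standard error 0.34). Of these 15, 8 were higher and 7 lower in *pex5*-/- by their mean log2 value, with a median log2 difference of 0.02, and 0 were called. Both *pex5*-/- libraries lay above both WT libraries for 4 of them (16.9% of all tested genes) and below for 4 (13.5%). Of the 35, 13 had at most 3 reads in every library, as did 7975 of all 16405 listed genes. The 13 included *c6*, *c7a* and *c7b*, which precede C8 and C9 in the membrane attack complex, at 0 to 3 reads. They also included *itgam* and *itgb2*, which encode the chains of a C3 fragment receptor of leukocytes. The macrophage and neutrophil markers were also nearly absent, the 7 listed ones summing to between 6 and 18 reads.

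Among the starting proteases, *c1r* (chromosome 16), which activates the classical pathway, was at 33.4 and 25.1 TMM in WT and at 0 and 4.84 TMM in *pex5*-/-. The counts behind these values were 47 and 32 against 0 and 7 reads, for a log2 difference of -3.63 (standard error 1.12, adjusted p = 1.00 from limma). With a library at 0 reads the size of this difference depends on the pseudocount, and it was -2.36 without *pex5*-/- replicate 1 and -4.90 without *pex5*-/- replicate 2. The groups did not overlap, and neither did the summed heart muscle markers, whose part in the *c1r* difference was not tested. *colec11*, a collectin of the lectin pathway, was at 11.4 and 18.8 TMM against 6.01 and 8.99 TMM, from 16 and 24 against 8 and 13 reads. *masp2*, the lectin pathway protease that cleaves C4, overlapped between the groups at 82.3 to 103 TMM. In the terminal pathway the C8 gamma chain gene *c8g* was at 241 and 211 TMM in WT and at 249.5 and 319 TMM in *pex5*-/-, and it supplied between 58.2% and 71.4% of the reads of the 3 C8 genes. The beta chain gene *c8b*, next to *c8a* on chromosome 2, went the other way without overlap, at 89.4 and 89.5 TMM in WT and at 80.4 and 71.2 TMM in *pex5*-/- (log2 difference -0.24, standard error 0.25). Neither *c8g* nor *c8b* passed the test. C8 is a complex of single copies of its chains, whereas the tags counted for the 3 genes were not equal in number. How closely tag counts follow the transcript numbers of different genes was not tested.

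Among the regulators, *vtnb* lay above the WT range in both *pex5*-/- libraries, with 402 and 354 TMM in WT and 570.4 and 554 TMM in *pex5*-/-. It encodes a vitronectin, a plasma protein that blocks membrane attack, and showed a log2 difference of 0.57 (standard error 0.22, adjusted p = 1.00 from limma). *serping1*, which encodes the C1 inhibitor, was at 70.3 and 64.4 TMM against 51.9 and 48.4 TMM. *cpn1*, which encodes the catalytic chain of the carboxypeptidase that inactivates C3a and C5a, was at 9.22 and 15.7 TMM against 16.5 and 19.4 TMM. Its values rested on few reads, 13 and 20 against 22 and 28. The factor H-like gene *cfhl4* varied over a wide range, with 123 and 7.85 TMM in WT and 145 and 277 TMM in *pex5*-/-. WT replicate 4 was low for this gene, and the log2 difference of 2.60 (standard error 1.25, adjusted p = 1.00 from limma) rested on that library. It was 0.70 (adjusted p = 0.98 from limma) without WT replicate 4. Without WT replicate 1 it was 4.51 (adjusted p = 0.0116 from limma), a call that has the low WT replicate 4 as the only WT library, assumed to vary like the other group. Factor H-like genes are similar in sequence, and whether reads were shared between the copies was not tested. *cfhl2*, chosen after its values were seen, was highest in WT replicate 4, at 163 TMM. It was at 54.6 TMM in WT replicate 1 and at 74.4 and 38.0 TMM in the *pex5*-/- libraries. *cfhl3* was instead highest in WT replicate 1, at 19.9 and 11.8 TMM in WT and at 3.76 and 1.38 TMM in *pex5*-/-. These values rested on 28 and 15 against 5 and 2 reads. With a mean of 9.20 TMM, *cfhl3* did not enter the test. The Poisson intervals of WT replicate 4 (6.59 to 19.4 TMM) and *pex5*-/- replicate 1 (1.22 to 8.77 TMM) overlapped.

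**Figure D4:**
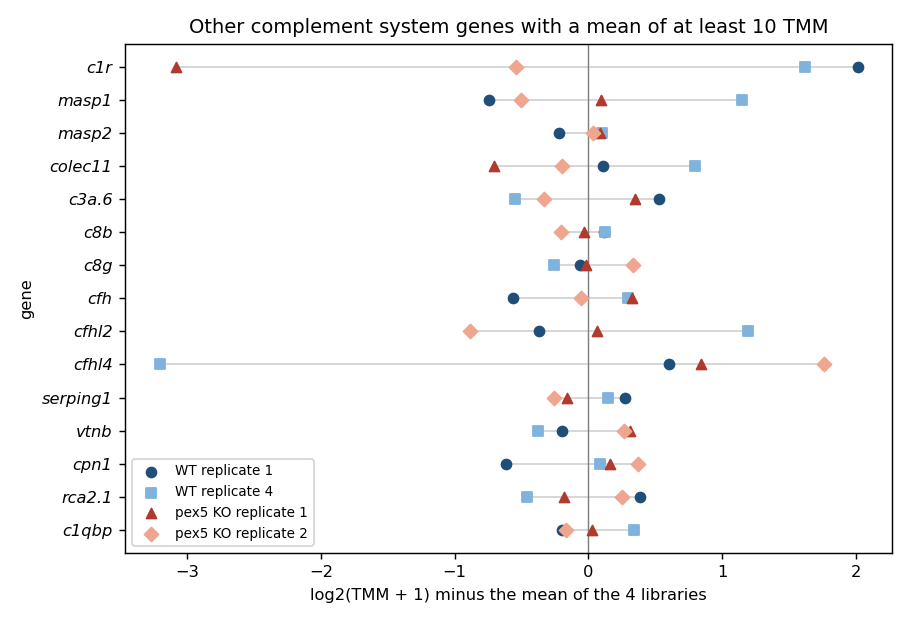
Each row is a complement system gene outside the 10 members averaging 10 TMM or more, and each point is a library's log2(TMM + 1) minus the mean of the 4 libraries (horizontal axis). c1r is high in both WT libraries and vtnb in both pex5 KO libraries, while WT replicate 4 is far below the others for cfhl4.

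Liver genes that respond to inflammation were compared as a further list, since several complement genes belong to that response. Of 28 acute phase and plasma protein genes averaging 10 TMM or more, 11 were higher and 17 lower in *pex5*-/-, with a median log2 difference of -0.10 and 0 called. The list was not split by the direction in which its genes respond to inflammation. These counts and the median therefore give no direction for the acute phase response. Both *pex5*-/- libraries lay above both WT libraries for 5 of the 28 (16.9% of all tested genes) and below for 6 (13.5%). WT replicate 1 was again often the highest of the 4, for 13 of the 28, against 23.2% of all tested genes. It was the lowest for 3 of the 28, *ttr*, *a2ml* and *f2*. WT replicate 4 was the lowest library for 12 of the 28 and *pex5*-/- replicate 2 for 10. The same shares over all tested genes are not given here. *saa*, the serum amyloid A gene, had 78 reads in WT replicate 1 and 2, 0 and 2 reads in the other libraries. It is among the 6 counted as below, although WT replicate 4 and *pex5*-/- replicate 2 both had 2 reads. Only the scaling separated these libraries, at 1.57 and 1.38 TMM. One of the rows listed as *hp*, haptoglobin (ENSDARG00000051890, chromosome 7), was chosen after its values were seen. It had 279 reads in WT replicate 1 and 0, 2 and 1 reads elsewhere. *hamp* and *cp* were likewise chosen after their values were seen. *hamp*, which encodes the iron hormone hepcidin, was at 3259 and 779.8 TMM in WT and at 1077 and 1999 TMM in *pex5*-/-. *cp*, ceruloplasmin, was at 659.9 TMM in WT replicate 1 against 234 to 337 TMM. *c3a.1*, *c3a.3* and *cfb* shared this high library. The values without WT replicate 1, given above, have WT replicate 4 as the only WT library. The part of either WT library in the difference between the genotypes was not tested.

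Other plasma protein genes are given by their values, the groups of *fgg*, *ahsg2*, *serpina7*, *fetub*, *rbp4*, *tfa*, *serpina1l* and a row of *hp* not overlapping. *fgg*, the fibrinogen gamma chain gene, was at 576 and 461 TMM in WT and at 390.1 and 318 TMM in *pex5*-/-, and *ahsg2*, a fetuin gene, at 705 and 509 against 418 and 395 TMM. *serpina7*, whose human counterpart encodes thyroxine-binding globulin, was at 44.0 and 15.7 against 210.4 and 145 TMM (log2 difference 2.68, standard error 0.54, adjusted p = 1.00 from limma). The difference was 1.97 (adjusted p = 0.43 from limma) without WT replicate 4 and 3.40 (adjusted p = 0.0230 from limma) without WT replicate 1, each with a lone WT library that is assumed to vary like the *pex5*-/- pair. The most abundant of the list, *fetub*, a fetuin B gene, was at 18842 and 16440.4 against 16160.4 and 9752 TMM, and *rbp4*, retinol-binding protein, at 13454 and 10393 against 15505 and 16633 TMM. *tfa*, transferrin, was at 2649.7 and 1775 against 3164 and 2767 TMM, and *serpina1l* at 3039 and 2729.6 against 4439 and 3301 TMM. Another row listed as *hp* (ENSDARG00000095807, chromosome 8, *msmbl* in a current gene name table) was at 553.5 and 514 against 676 and 812 TMM. With all 4 libraries, none of the 28 genes passed the adjusted test.

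**Figure D5:**
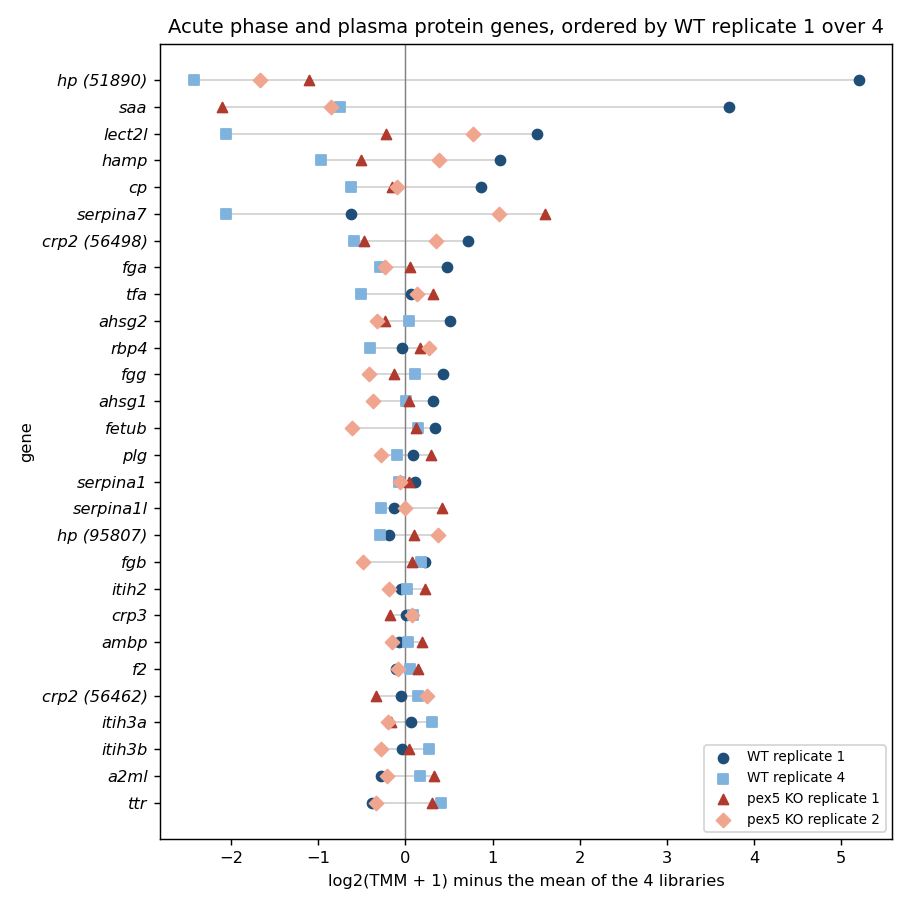
Each row is an acute phase or plasma protein gene averaging 10 TMM or more, ordered by how far WT replicate 1 exceeds WT replicate 4, and each point is a library's log2(TMM + 1) minus the mean of the 4 libraries (horizontal axis). For the top rows, the hp row ENSDARG00000051890 and saa, WT replicate 1 lies far to the right of the other 3 libraries, whereas most rows below span less than 1 unit.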

How the data were processed

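The submitters' notes and the methods name UMI-tools 1.1.1, Trim Galore 0.6.7, HISAT2 2.2.1 against GRCz11 and featureCounts 2.0.1. UMI duplicates were removed and counts were scaled by TMM in edgeR, and the authors deposited log2(TMM + 1). The gene annotation release and the handling of reads with several matches are not given in the sources used here. Undoing the log2 gave whole multiples of a step in each library for 100% of values (tolerance 0.02 reads), from which reads were recovered. The labels gave the groups. limma 3.58.1 (R 4.3.3, lmFit and eBayes with trend) was fitted on every gene averaging 10 TMM or more. P-values were adjusted by the Benjamini-Hochberg method (threshold 0.05), and the code was tested on simulated data. Shares have 95% Wilson intervals and levels exact Poisson intervals, both computed in Python 3.11.15 with scipy 1.17.1. A floor of 3 reads was used. Members and lists were chosen with earlier results of these data known. Besides the members, genes named from a list are those without overlap between genotypes (up to 6, by size of difference) and the 4 most abundant, and others serve as background or carry a remark. Alternatives covered pseudocount, filter, scaling, trend, voom weights, summed C3 genes and each library left out. The *pex5* transcript was not analysed here.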

Additional observations from a re-analysis of the deposited data

How the results depend on the processing

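No member was called under any alternative. Leaving out each library in turn gave 0 to 12 called genes (12 without WT replicate 1, 3 without WT replicate 4, each with a lone WT library assumed to vary like the others), 5 to 7 members lower in *pex5*-/-, and log2 differences from -1.51 to 0.21 for *c3a.1*, -1.39 to 0.056 for *cfb*, -0.35 to 0.075 for *c9*, -0.39 to 0.14 for *c5* and -0.077 to 0.048 for *c8a*. The difference in the *c3a.1* share of C3 reads went from -9.89 to 5.77 percentage points. The signs of *c4b*, *c3a.2* and *c3a.3* held in every setting run. Of 103 values of single members under an alternative, 96 kept their direction and 7 changed sign, all with a library left out. A change of filter or trend leaves the log2 difference of a gene as it is, so those values could not change sign. Scaling to equal totals, with or without the mitochondrial genome, gave 4 members without overlap below WT (*c3a.3* and *c8a* were added) and 2 other complement genes above it. With the mitochondrial genome included, this scaling shifted the median of all tested genes to -0.088, and 58.8% of them were lower in *pex5*-/-. The version without the mitochondrial genome gave 10 acute phase genes below and 3 above, and it shifted the median of all tested genes to -0.12 and the share lower in *pex5*-/- from 49.5% to 62.3%. With a filter of 50 TMM, 1 member (*c3a.2*) lay below WT without overlap, since *c4b* was not tested, and 4 other complement genes were lower, 2 of them without overlap. Without a filter, 17 were lower and 9 of them without overlap, since more genes with few reads entered. The share of all tested genes without overlap is not given here for these scalings and filters. The counts without overlap therefore stand without a background share. No paired analysis was possible because the genotypes share a single replicate number.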

Other observations

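Several genes outside these lists, chosen after their values were seen, separated a WT library from the other 3. In WT replicate 1, the intelectin gene *itln3* was at 1549 TMM against 13.3 to 27.0 TMM in the others, *hpxb*, which encodes a hemopexin, at 1950.0 against 111 to 147 TMM, and the unnamed gene listed as *BX908782.2* at 572 against 0.691 to 2.25 TMM. In WT replicate 4, the interferon-induced gene *isg15* was at 195 reads against 1, 2 and 1 reads, and *stat1b* and *rsad2*, with 12 and 6 reads there, had 0 reads in the other 3 libraries.

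Of the regulators of hepatic inflammation, 21 were listed and 6 averaged 10 TMM or more. All 6 had a lower mean log2 value in *pex5*-/- (median difference -0.21), where 49.5% of all tested genes did. For 2 of them the groups did not overlap (13.5% of all tested genes). For *cebpb* the mean in TMM was 113 in WT and 114 in *pex5*-/-, so that its sign depends on the scale. *socs3b*, a feedback inhibitor of cytokine signalling, was at 38.3 and 37.7 TMM in WT and at 18.8 and 24.2 TMM in *pex5*-/- (log2 difference -0.80, standard error 0.28, adjusted p = 1.00 from limma). The C/EBP factor genes *cebpb* and *cebpd* overlapped between the genotypes, at 77.4 to 150.0 and 128 to 165 TMM. Their log2 differences were -0.060 (standard error 0.40) and -0.038 (standard error 0.27).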
